A study of Mus musculus with 6 samples.

Results

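The 10 genes described here code for TGF-beta ligands (Tgfb1, Tgfb2, Tgfb3 and the activin subunit Inhba), TGF-beta receptors (Tgfbr1, Tgfbr2, Tgfbr3) and SMADs (Smad2, Smad3, Smad7). They were chosen by name, as the entries of the expression table that carry these gene symbols, and all 10 were found among 15667 genes. RNA was sequenced from the ears of 6 female mice, 3 Adipo+/+ (WT) and 3 Adipo-/- littermates (KO), aged 7 to 8 weeks. Both groups were bred from heterozygous mice of the strain B6;129-Adipoq tm1Chan /J. The KO mice carry its allele Adipoq tm1Chan, a null allele of the adiponectin gene in every tissue. Adiponectin is an adipocyte-derived hormone that circulates in blood, and which cells carry the RNA differences was not tested. All 6 mice had been bitten by 10 Ixodes scapularis ticks for 48 h, and 1 punch of 3.5 mm was taken from the bite site of each. Unbitten skin was not analysed here, so the values compare genotypes in bitten skin and say nothing of the effect of the bite. The p-values of single genes set the difference between genotypes against the spread among mice of the same genotype. With 1 punch per mouse, that spread also holds differences between punches and between libraries.

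TGF-beta ligands are secreted in a latent form and, once released, bring together a type II and a type I receptor kinase at the cell surface. The type I receptor phosphorylates the receptor-regulated SMADs, which enter the nucleus with a common partner and change transcription, while inhibitory SMADs feed back on the receptor. In skin the pathway is known for restraining keratinocyte growth, for building matrix through fibroblasts in wounds and for tempering immune cells.

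Low values were multiples of the CPM of 1 read, which put the depth at 3403707 to 6591509 reads per library, and the ribosomal precursor Rn45s took 7.99% to 11.4% of them. Adipoq, the targeted gene, had 30.5, 63.7 and 49.6 CPM (read counts scaled to a common library total) in WT replicates 1, 2 and 3. The KO replicates had 0, 0.560 and 0 CPM. The difference was -6.17 on the log2 scale (SE 0.41, limma adjusted p = 0.00322). Keratinocyte markers summed to between 20006 and 38379 CPM and fibroblast markers to between 2987 and 4593 CPM, and no listed marker found in the table was at 0 in all 6 libraries. The libraries differed most in other markers. The 10 hair follicle genes summed to 8.47, 9.56 and 22248 CPM in WT replicates 1, 2 and 3 and to 1769, 8860 and 913 CPM in the KO replicates, and the 6 neutrophil genes found in the table to 524, 168 and 19.8 CPM and to 177, 68.9 and 70.8 CPM. Of all 14306 genes tested, 2 (0.014%) passed an adjusted p of 0.05, while 412 (2.88%) had an unadjusted p below 0.05, 260 of them (1.82%) lower and 152 (1.06%) higher in KO skin.

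None of the 10 genes passed the adjusted threshold in limma, and each had an adjusted p of 0.998. At an unadjusted p below 0.05, 2 of the 10 were counted, Inhba and Tgfbr1, both lower in KO skin, where 2.88% of all tested genes were counted. The fitted log2 fold change was below 0 for 10 of 10 (7 to 10 with a library left out), where the share of all tested genes below 0 was 56.7%. After scaling by the median of ratios, after quantile normalization and with totals that leave out Rn45s, it was again 10 of 10. The shares of all tested genes were then 50.7%, 48.7% and 52.7%. With hair follicle markers as a covariate it was 9 of 10. The genes were chosen with earlier results of these data known, so these counts are a description. The median log2 fold change of the 10 genes was -0.13, against -0.03 for all tested genes.

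**Figure D1:**
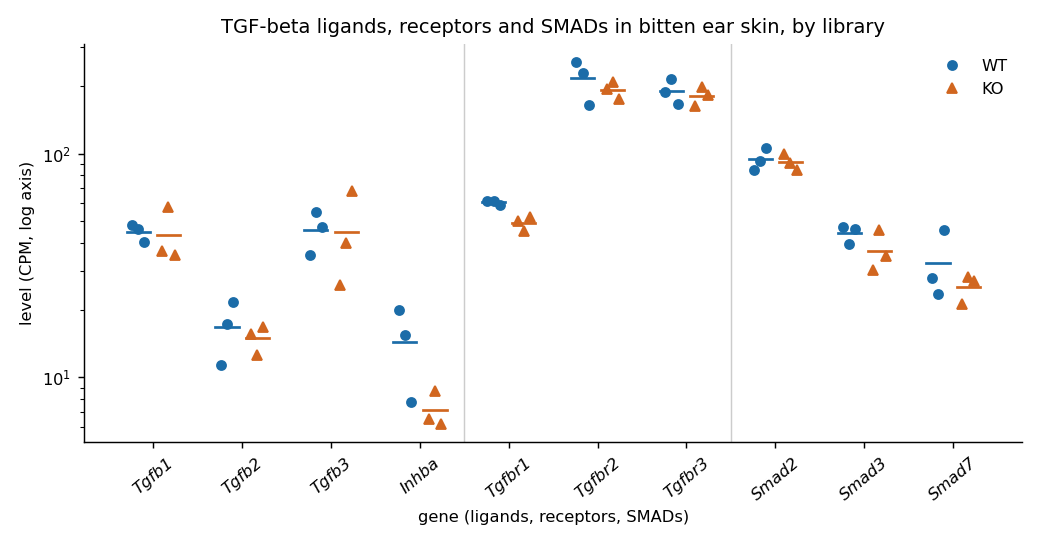
Level of each of the 10 genes in CPM (log axis) in the 3 WT libraries (circles) and the 3 KO libraries (triangles), with a line at each group's mean. The symbols of the groups overlap for every gene but Tgfbr1, whose 3 KO values lie below its 3 WT values.

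Sequence is shown for the 2 genes at an unadjusted p below 0.05 and for the primers of a ligand assay. The 250 bases before the start of each come from RefSeq (GRCm38.p6), written 5′ to 3′ along the gene's strand, and capitals mark the motif matches. The Inhba promoter is chr13:16011601-16011850 (plus strand), and the Tgfbr1 promoter at its first start is chr4:47352972-47353221 (plus strand).
Inhba: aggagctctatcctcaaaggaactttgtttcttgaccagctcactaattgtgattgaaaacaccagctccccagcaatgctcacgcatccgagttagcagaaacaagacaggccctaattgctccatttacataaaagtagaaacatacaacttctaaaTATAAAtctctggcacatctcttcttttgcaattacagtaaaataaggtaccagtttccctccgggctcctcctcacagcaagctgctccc
Tgfbr1: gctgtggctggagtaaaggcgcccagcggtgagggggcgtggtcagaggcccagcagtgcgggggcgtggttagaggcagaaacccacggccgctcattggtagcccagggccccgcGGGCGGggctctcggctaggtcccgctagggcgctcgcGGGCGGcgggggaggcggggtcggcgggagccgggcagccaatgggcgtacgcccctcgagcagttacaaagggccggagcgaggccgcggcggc

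The motifs searched, on both strands, were the AP-1 site TGANTCA, the cyclic AMP response element TGACGTCA, the SMAD-binding CAGACA and its palindromic form GTCTAGAC, the GC box GGGCGG and the TATA box TATAAA. The shares of all 32851 promoters in the table that held them were 6.75%, 1.55%, 17.1%, 0.167%, 32.7% and 12.4% in that order. Inhba held TATAAA alone, 91 bases before the start, and the first start of Tgfbr1 had GC boxes alone, 133 and 95 bases before it. The second start of Tgfbr1 in the table had CAGACA, 203 bases before it. Their base composition also differed, with 43.2% G or C in the Inhba promoter and 74.8% in that of Tgfbr1. Tgfb1 (chr7:25686752-25687001) held 5 GC boxes and was 75.2% G or C. These are matches of letters, and a promoter without one only lacks these letters in this window. The table had a promoter for 6 of the 10 genes.

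The study also measured TGF-beta by quantitative PCR with a primer pair that bears on which ligand that assay reads. Both primers matched a single gene of the GENCODE M21 transcripts, Tgfb1, on chromosome 7 (GRCm38).
forward: tggagcaacatgtggaactc
reverse: tgccgtacaactccagtgac

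The forward primer lies at 25692512 to 25692531 in exon 2 and the reverse at 25694304 to 25694323 in exon 3 of the 7 exons of the coding transcript, both in coding sequence, and they span 127 bases of RNA. Neither has an exact match in Tgfb2 or Tgfb3, so that assay covers 1 of the TGF-beta isoforms described next.

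Tgfb1 (chr7:25687002-25705077, plus strand) codes for the ligand that immune cells and platelets release. It had 47.9, 46.0 and 40.2 CPM in WT replicates 1, 2 and 3 and 36.7, 57.7 and 35.3 CPM in KO replicates 1, 2 and 3. The KO libraries held both the highest value and the 2 lowest, so the groups overlapped around means of 44.7 ± 4.003 and 43.2 ± 12.6 CPM (SD, n = 3 each). The log2 fold change, on the log2(CPM + 0.5) scale throughout, was -0.08 with a 95% interval of -0.55 to 0.38 (limma unadjusted p = 0.698). The interval spans falls and rises, so a moderate difference in either direction was not detectable with 3 mice per group.

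Tgfb2 (chr1:186622792-186705989, minus strand), a ligand of epithelium and hair follicles, was the lowest of the TGF-beta isoforms per length of exon. Its values were 11.4, 17.3 and 21.6 CPM in the WT replicates and 15.6, 12.6 and 16.7 CPM in the KO replicates. The 3 KO values lay within the WT range, with a log2 fold change of -0.12 and an interval of -0.71 to 0.47 (limma unadjusted p = 0.653). Tgfb3 (chr12:86056743-86079041, minus strand), a ligand known from palate closure and wound repair, varied most among KO libraries. It had 35.1, 54.5 and 47.0 CPM in the WT replicates and 25.8, 39.8 and 67.9 CPM in the KO replicates, the last group holding both extremes. Its log2 fold change was -0.12 with an interval of -0.89 to 0.65 (limma unadjusted p = 0.726). Its 3′ end overlaps Ttll5 on the opposite strand in GENCODE M21, and reads of these 2 genes could not be told apart if the counting did not use strand.

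Per exon length, Tgfb3 made up 53.0% ± 4.94 of the summed CPM per kb of the isoforms in WT skin and 52.2% ± 12.9 in KO skin (SD, n = 3 each). Tgfb1 made up 35.7% ± 6.82 in WT and 36.6% ± 11.6 in KO skin, a difference of 0.938 percentage points (two-sided exact permutation test, p = 0.9, and 1 after Benjamini-Hochberg adjustment over 3 ratios). Tgfb2 made up 11.4% ± 2.87 and 11.2% ± 3.63. With 3 against 3 libraries the smallest p this test can give is 0.1, so it could not have passed 0.05. Before division by length, Tgfb1 and Tgfb3 averaged 44.0 and 45.0 CPM over the 6 libraries. Their unequal shares thus rest on the exon lengths used, 5042 and 3383 bases. These lengths join the exons of all annotated transcripts, among them a retained intron form of Tgfb1. Which transcripts were expressed was not tested.

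Inhba (chr13:16011851-16031609, plus strand) codes for the beta A subunit, which pairs with itself to form activin A, a ligand of the same SMADs that is induced in wounded skin. It had 20.1, 15.5 and 7.75 CPM in WT replicates 1, 2 and 3 and 6.52, 8.69 and 6.17 CPM in KO replicates 1, 2 and 3. WT replicates 1 and 2 stood above all others, while WT replicate 3 lay below KO replicate 2, so the groups overlapped. The means were 14.4 ± 6.23 and 7.13 ± 1.36 CPM (SD, n = 3 each), 2.03-fold higher in WT skin, with a log2 fold change of -0.89 (SE 0.35, interval -1.69 to -0.08, limma unadjusted p = 0.0352 and adjusted p = 0.998).

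Inhba was also the member with the fewest reads, from 21 in KO replicate 3 (exact Poisson interval 13 to 32.1) to 83 in WT replicate 1. Its 2 highest libraries were those with the least hair follicle RNA, and the highest of all, WT replicate 1, had the most neutrophil RNA. The hair follicle covariate of the fits was the mean of log2(CPM + 0.5) over these markers, not their summed CPM. With it the log2 fold change of Inhba was -0.59 (limma unadjusted p = 0.0844). Without WT replicate 1 it was -0.60 (unadjusted p = 0.126), and without WT replicate 3 it was -1.26, the ends of the range with each library left out. The part of the hair follicle and neutrophil markers in the result was not tested further, and in punches of whole skin fewer cells of a type and less RNA per cell cannot be told apart. GENCODE M21 places B230303A05Rik and Gm48444 on the opposite strand within Inhba, whose reads could not be separated without strand.

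**Figure D2:**
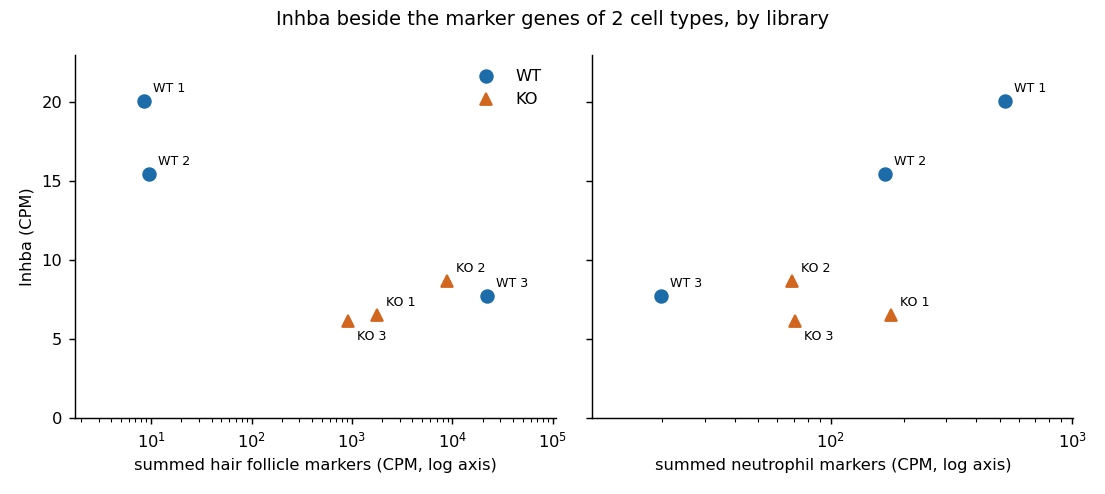
Inhba in CPM (vertical axis) against the summed CPM of hair follicle markers (left) and neutrophil markers (right), both on log axes, for each of the 6 libraries. WT replicates 1 and 2, at 20.1 and 15.5 CPM, lie apart from the other 4 libraries, which lie between 6.17 and 8.69 CPM.

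Tgfbr1 (chr4:47353222-47414924, plus strand) codes for the type I receptor kinase that phosphorylates Smad2 and Smad3. It had 61.2, 61.6 and 58.7 CPM in WT replicates 1, 2 and 3 and 50.1, 44.8 and 52.3 CPM in KO replicates 1, 2 and 3. It was the sole member whose KO values all lay below its WT values, as 4.89% of all tested genes did. The means were 60.5 ± 1.60 and 49.1 ± 3.83 CPM (SD, n = 3 each), a ratio of KO to WT of 0.811 and a log2 fold change of -0.30 (SE 0.11, interval -0.56 to -0.04, limma unadjusted p = 0.0278 and adjusted p = 0.998). With each library left out the log2 fold change ranged from -0.35 to -0.24. The unadjusted p was 0.0513 after quantile normalization, 0.0837 with the hair follicle markers as a covariate, and 0.0578, 0.0746 and 0.0956 without WT replicate 1, WT replicate 2 and KO replicate 2 (limma).

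Tgfbr2 (chr9:116087695-116175363, minus strand), the type II receptor kinase that binds the ligand first, had 256, 229 and 165 CPM in the WT replicates and 194, 209 and 175 CPM in the KO replicates. WT replicate 3 was the lowest library and the other 2 WT libraries were the highest, so all KO values fell between them. The log2 fold change was -0.15 with an interval of -0.54 to 0.24 (limma unadjusted p = 0.401), and it was -0.33 (unadjusted p = 0.0288) without WT replicate 3, -0.02 (unadjusted p = 0.918) without WT replicate 1 and -0.0036 (unadjusted p = 0.980) with the hair follicle covariate. Tgfbr3 (chr5:107106567-107289629, minus strand), or betaglycan, a co-receptor without a kinase that presents ligand to the type II receptor, had 188, 216 and 166 CPM in WT skin, and 162, 199 and 183 CPM in KO skin. The groups overlapped, with a log2 fold change of -0.06 and an interval of -0.36 to 0.24 (limma unadjusted p = 0.643).

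Ratios within a library do not depend on the scaling between libraries. The log2 ratio of Tgfbr1 to Tgfbr2 was -1.82 ± 0.29 in WT and -1.97 ± 0.24 in KO skin (SD, n = 3 each, difference -0.16, exact permutation test, two-sided p = 0.5, smallest possible 0.1). Of the summed CPM per kb of the receptors, Tgfbr1 made up 14.5% ± 1.74 in WT and 12.8% ± 1.65 in KO skin. Tgfbr2 made up 40.6% ± 4.08 and 40.1% ± 2.50, and Tgfbr3 44.9% ± 3.01 and 47.1% ± 2.57.

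Smad2, on chromosome 18, and Smad3 (chr9:63646767-63757994, minus strand) code for the receptor-regulated SMADs of this branch. Smad2 had 84.0, 93.0 and 106 CPM in the WT replicates and 99.5, 90.2 and 84.0 CPM in the KO replicates. The groups covered nearly the same range, and Smad2 had the smallest log2 fold change of the 10 genes, -0.04 with an interval of -0.33 to 0.24 (limma unadjusted p = 0.736). Smad3 had 46.7, 39.5 and 46.2 CPM in the WT replicates and 30.0, 45.4 and 34.7 CPM in KO skin. KO replicates 1 and 3 lay below all WT libraries and KO replicate 2 lay among them. Its log2 fold change was -0.28 with an interval of -0.68 to 0.12 (limma unadjusted p = 0.148), and it was -0.44 (unadjusted p = 0.0271) without KO replicate 2 and -0.15 (unadjusted p = 0.426) without KO replicate 1.

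Smad7, on chromosome 18, codes for the inhibitory SMAD, itself a transcriptional target of TGF-beta that recruits ubiquitin ligases to the type I receptor. It had 27.8, 23.6 and 45.5 CPM in the WT replicates and 21.2, 28.02 and 27.0 CPM in the KO replicates. WT replicate 3, the library with the most hair follicle RNA, stood above the other 5. The log2 fold change was -0.29 with an interval of -0.87 to 0.29 (limma unadjusted p = 0.276), and it moved both ways with the samples and model: to -0.02 (unadjusted p = 0.916) without WT replicate 3 and to -0.54 (unadjusted p = 0.0184) with the hair follicle markers as a covariate. The log2 ratio of Smad7 to Smad3 was -0.50 ± 0.42 in WT and -0.52 ± 0.17 in KO skin (SD, n = 3 each, exact permutation test, two-sided p = 1).

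**Figure D3:**
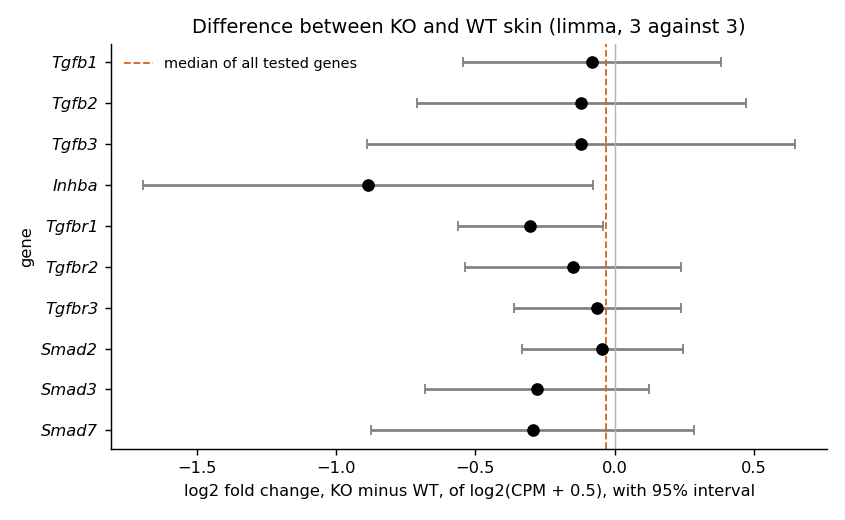
Log2 fold change of each gene, KO minus WT, on the log2(CPM + 0.5) scale (points) with the 95% interval from limma (bars), and the median of all tested genes (dashed line). The intervals of Inhba and Tgfbr1 end below 0, at -0.08 and -0.04, and the other 8 include 0.

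**Figure D4:**
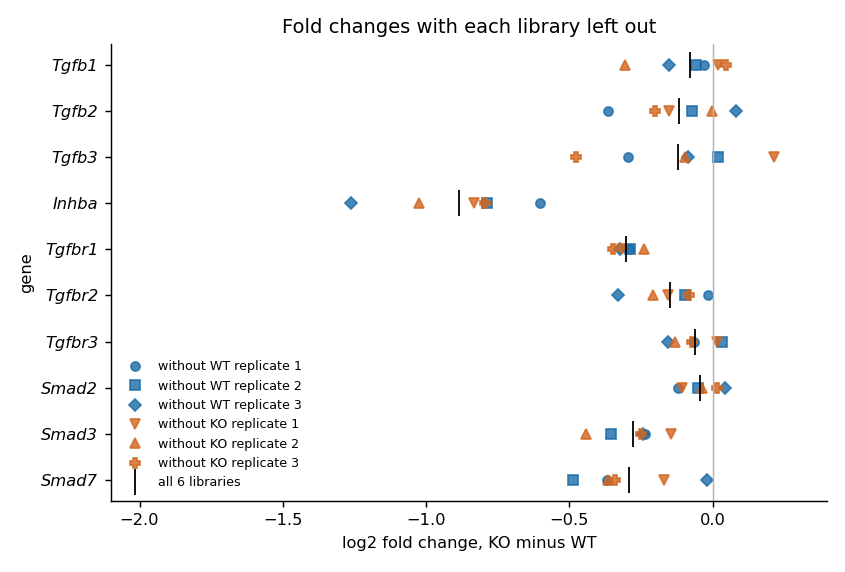
Log2 fold change of each gene, KO minus WT, with all 6 libraries (vertical mark) and with each library left out in turn (symbols, blue for WT and orange for KO). Tgfb1, Tgfb2, Tgfb3, Tgfbr3 and Smad2 fall on both sides of 0, while Inhba stays between -1.26 and -0.60 and Tgfbr1 between -0.35 and -0.24.

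Divided by exon length, the levels of the 10 genes fell into 3 tiers whose ranges over the 6 libraries did not overlap. The order and the tiers depend on these lengths, which join the exons of all annotated transcripts. The upper boundary was narrow, with Tgfb3 at 20.06 CPM per kb in KO replicate 3 and Tgfbr2 at 20.20 in WT replicate 3. The co-receptor and the type II receptor stood highest, Tgfbr3 at a mean of 28.4 CPM per kb (range 24.8 to 32.9) and Tgfbr2 at 25.03 (20.2 to 31.3). The middle tier held Tgfb3 at 13.3 CPM per kb, Smad2 at 10.6, Tgfb1 at 8.72, Tgfbr1 at 8.39, Smad3 at 7.29 and Smad7 at 6.39, and each neighbour in this order overlapped the next. Tgfb1 was above Tgfbr1 in 2 of the 6 libraries, so those genes could not be ordered. Tgfb2 at 2.74 CPM per kb (1.96 to 3.73) and Inhba at 1.69 (0.966 to 3.14) were lowest, and Tgfb2 was above Inhba in 5 of 6 libraries. The type I receptor was thus at a lower level per kb than the type II receptor in every library.

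The pairs of members that moved together over the 6 libraries are given as a description, since both values of a point come from the same library and share its genotype, depth and cell makeup. Pearson's r of log2(CPM + 0.5) was highest for Inhba and Tgfbr2 (0.886) and lowest for Tgfb2 and Tgfbr2 (-0.760). Among the 11685 genes that averaged 5 CPM or more, those most like Inhba were Dnajb9 (r = 0.991), Tfip11 (0.988) and Nfe2l2 (0.986). Those most like Tgfbr1 were 2310061I04Rik (0.986), Ccnh (0.984) and Ipo7 (0.983), and those most like Tgfb1 were Lrrc8c (0.994), Stx2 (0.991) and Apba1 (0.991). Of these 11685 genes, 26, 18 and 26 had an r above 0.95 with Inhba, Tgfbr1 and Tgfb1.

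The rest of the superfamily pathway was followed in 5 lists, of which 85 of 88 symbols were tested (Ctgf, not found, is the older symbol of Ccn2, which was tested). At an unadjusted p below 0.05, 3 of the 85 were lower in KO skin and 2 higher (5.88% in all, against 2.88% of all tested genes), and 0 passed the adjusted threshold in limma. The lists are not independent evidence, since they were written with the study's gene listing from these libraries known. Pmepa1, also induced by TGF-beta, was counted with the SMADs and regulators, and Smad7 with the members. The count of induced genes depends on this placing. By list, 1 of 12 other ligands was lower (median log2 fold change -0.33), 0 of 23 genes of latency, activation and extracellular inhibition were counted in either direction (median -0.10), 1 of 11 other receptors was lower (median -0.11), 1 of 17 other SMADs and regulators was lower (median -0.07), and 2 of 22 genes known to be induced by TGF-beta were higher (median 0.04).

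Postn and Col1a1, the TGF-beta-induced genes counted as higher, code for matrix proteins. Postn, which codes for the matrix protein periostin, had 292, 349 and 227 CPM in WT skin, and 686, 562 and 554 CPM in KO skin. Its groups did not overlap, as for the 2.95% of all tested genes whose KO values all lay above the WT values (log2 fold change 1.07, limma unadjusted p = 0.000245 and adjusted p = 0.702). Its unadjusted p was below 0.05 in 17 of 17 alternatives, and its limma adjusted p was 0.0251 with the hair follicle covariate, the 1 alternative in which it passed the adjusted threshold. Col1a1, a chain of type I collagen named after its values were seen, had means of 1179 ± 203 in WT and 1680 ± 383 CPM in KO skin (SD, n = 3 each, log2 fold change 0.50, limma unadjusted p = 0.0391), and its groups overlapped. The summed fibroblast markers were 2987, 3526 and 3722 CPM in WT replicates 1, 2 and 3 and 3063, 4315 and 4593 CPM in the KO replicates. This sum includes Col1a1 and Col1a2, so it follows Col1a1 in large part by construction. Of the other markers in it, Col1a2 gave 0.32 (limma unadjusted p = 0.117), while Dcn gave -0.34 (limma unadjusted p = 0.0917). The part of fibroblast content in the Col1a1 value was not tested. Ccn2, a matricellular protein gene and common readout of the pathway, gave -0.25 (limma unadjusted p = 0.321).

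Of the other lists, Bmp3, a bone morphogenetic protein that opposes its relatives, had 32.4, 46.8 and 38.9 CPM in WT skin, and 29.6, 31.7 and 22.9 CPM in KO skin, all KO values below all WT values (log2 fold change -0.48, limma unadjusted p = 0.034). Pmepa1, a TGF-beta-induced gene whose product limits receptor-regulated SMADs, had 43.8, 49.8 and 64.6 CPM in WT skin, and 27.9, 44.6 and 33.2 CPM in KO skin, with KO replicate 2 just above WT replicate 1 (log2 fold change -0.58, limma unadjusted p = 0.0248). Skil, which codes for the SMAD co-repressor SnoN, gave -0.07 (limma unadjusted p = 0.565). Acvr1c, the type I receptor ALK7 known from fat cells and named after its values were seen, had means of 14.6 ± 4.68 in WT and 7.11 ± 3.54 CPM in KO skin (SD, n = 3 each, log2 fold change -1.04, limma unadjusted p = 0.0301). Its groups overlapped, with KO replicate 2 at 10.9 CPM above WT replicate 1 at 9.20 CPM. Summed adipocyte markers ran from 492 to 750 CPM in WT and from 290 to 757 CPM in KO libraries, with the 2 lowest sums in KO replicates 1 and 3, where Acvr1c was also lowest, and their part in that value was not tested.

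**Figure D5:**
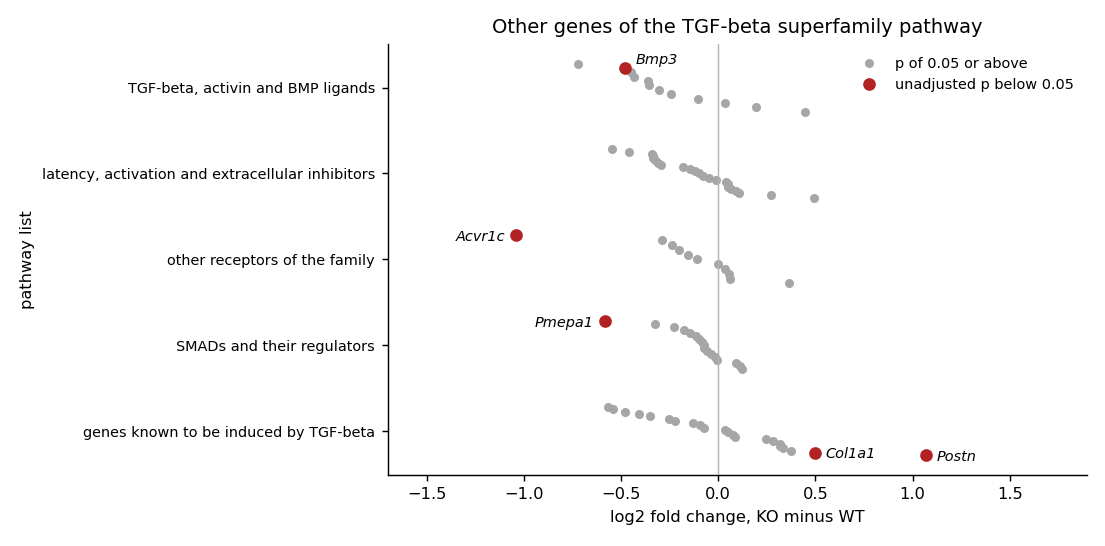
Log2 fold change, KO minus WT, of the 85 tested genes of the 5 lists, 1 point per gene in order of its value within its list, with genes at an unadjusted p below 0.05 in red. The 5 red genes lie on both sides of 0, from Acvr1c at -1.04 to Postn at 1.07.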

How the data were processed

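Skin RNA of 3 WT and 3 KO mice was analysed, grouped by the genotype in each sample's label. Per the study's methods, reads were aligned to mm10 with STAR (2.7.3a) and quantified to Ensembl transcripts in Partek Flow by expectation maximization, which can divide a read among genes. Whether counting used strand is not stated in these sources. By the deposited positions no member overlapped another gene of the table. GENCODE M21 places genes over Tgfb3 and Inhba, as given above, and also over Tgfb2 and Tgfbr3. For Tgfb2 these are Gm26169 and Gm29491 on the opposite strand. For Tgfbr3 they are Gm8145 on the opposite strand and Gm43422, Gm43423 and Gm42900 on its own, which strand could not separate. The deposited values are CPM, made by the authors from gene counts and the total of reads in a library. A deposited offset of 0.0001 was removed before use. Low values (up to 20 reads) were whole within a tolerance of 0.1 read in 91.9% to 92.8% of cases per library, so recovered reads are estimates and no count model was the main test. At this depth 3 reads corresponded to 0.455 to 0.881 CPM, and Poisson intervals cover counting error only.

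Genes that averaged 1 CPM or more (14306 tested, 1361 not) were compared as log2(CPM + 0.5) with limma 3.58.1 in R 4.3.3 (lmFit, eBayes with trend, two-sided, no covariate), with Benjamini-Hochberg adjustment over all of them. Fold changes on this scale understate the change of low genes. The limma step was also run on simulated counts with independent genes and a fixed dispersion. That run checks the code only, since it lacks the shared differences in cell markers seen between these libraries. Exon lengths are the union of GENCODE M21 exons. The alternatives were other offsets, filters, scalings and limma settings, a hair follicle covariate, a replicate block, and each library left out.

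The members and gene lists were chosen with earlier results of these data known. Named genes were the members, Adipoq, up to 4 genes per list at an unadjusted p below 0.05 whose groups did not overlap, Ccn2, Pmepa1 and Skil, and the 3 genes most like Tgfb1, Inhba and Tgfbr1. A gene of the pathway lists is not reported here and was left out of their counts and medians. Summed skeletal muscle markers were 4332, 5008 and 5403 CPM in WT replicates 1, 2 and 3 and 2583, 3197 and 5196 CPM in the KO replicates. Of the 7 muscle genes, 2 were lower in KO skin at an unadjusted p below 0.05 (limma), as were 1.82% of all tested genes. Platelet markers ran from 65.3 to 72.5 CPM in WT and from 46.0 to 67.2 CPM in KO libraries. Endothelial markers ran from 116 to 128 CPM in WT and from 81.8 to 120 CPM in KO libraries. Over all 6 libraries, sums ranged from 356 to 717 CPM for macrophages, 15.3 to 26.4 CPM for T cells and 204 to 516 CPM for cartilage.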

Additional observations from a re-analysis of the deposited data

How the results depend on the processing

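The adjusted count over the 10 genes was 0 under every alternative run (adjusted p of Inhba 0.233 to 1, of Tgfbr1 0.831 to 1). The count at an unadjusted p below 0.05 was 2 (Inhba and Tgfbr1). It became 1 after quantile normalization (Inhba, with 2.97% of all tested genes counted) and 1 by limma voom on recovered reads (Tgfbr1, 3.19%). With the hair follicle covariate it was also 1, but that gene was Smad7 (6.42%). With a library left out it was 0 to 3 (2.17% to 4.96%), and included Tgfbr2 without WT replicate 3 and Smad3 without KO replicate 2. Inhba was counted in 11 and Tgfbr1 in 12 of 17 alternatives. The count of pathway genes was 5, where 2.88% of all tested genes were counted. It became 3 by limma without trend (3.57% of all tested genes) and 11 with the hair follicle covariate (6.42%). With the replicate block it was 10 (4.13%). With a library left out it was 2 to 8 (2 without WT replicate 2, where 2.17% of all were counted, and 8 without WT replicate 3, where 4.96% were). Of the pathway genes Postn alone passed the adjusted threshold, in 1 alternative (limma adjusted p = 0.0251 with the hair follicle covariate). With the replicate block the limma unadjusted p of Inhba was 0.0216 and that of Tgfbr1 0.0373. Same-numbered WT and KO libraries deviated with correlations of 0.376, -0.306 and -0.222, and those of different number with -0.382 to 0.449. With 3 mice per group such values cannot settle whether same-numbered mice shared a batch or litter. No pairing was assumed. Adipoq gave -7.88 by voom (adjusted p = 0.488) and -6.54 to -5.94 with a library left out (limma adjusted p = 0.0681 without WT replicate 2). Leaving out libraries turned the sign of the log2 fold changes of Tgfb1 (-0.31 to 0.046), Tgfb2 (-0.37 to 0.083), Tgfb3 (-0.48 to 0.21), Tgfbr3 (-0.16 to 0.033) and Smad2 (-0.12 to 0.043), and Tgfbr3 was 0.0045 with the hair follicle covariate. The difference in the Tgfb1 share ran from -3.31 to 7.56 percentage points, that in the ratio of Smad7 to Smad3 from -0.14 to 0.23 and that of Tgfbr1 to Tgfbr2 from -0.28 to 0.0053. The cause of these shifts was not tested. Of the limma values of single members under alternatives, 146 changed neither sign nor side of the unadjusted threshold, 10 turned sign, 11 lost that threshold and 3 reached it. Scaling moved the split of all genes at an unadjusted p below 0.05 from 260 lower and 152 higher to 215 and 210 (median of ratios), 193 and 232 (quantile) and 224 and 181 (total without Rn45s).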
